A study of Homo sapiens with 12 samples.

Results

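CAMK1D, TRAPPC9, STX8, RASL10A and ADAT3 are 5 of the genes whose messenger RNA was lowered most when OCI-Ly7 cells received 5-azacitidine alone. They are 5 of 78892 genes in the count table, and all 5 were among the 17869 genes with enough counts to be tested. The genes were picked by symbol for their lower level in cells given 5-azacitidine than in cells given vehicle, so their values in that comparison are a description and carry no test. OCI-Ly7 is a human lymphoma cell line, derived from a germinal-centre type of diffuse large B-cell lymphoma. Poly(A) RNA was sequenced from 4 groups of 3 libraries. The both-drug cells had 100 nM 5-azacitidine once a day on days 0 to 4 and an HDAC3 inhibitor at 15 µM on days 2 and 4. The 5-azacitidine cells had the first drug only, the inhibitor cells had the second drug only, and the vehicle cells had neither. All cells were harvested on day 5, and the sources used here do not name the inhibitor compound. The series addresses the efficacy of the drug pair in lymphoma, and nothing in the labels tells if the 3 libraries per group are separate cultures. The p-values thus measure only the spread between libraries, perhaps of technical origin, and all groups come from 1 cell line.

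5-azacitidine is a cytidine analogue that cells build into RNA and DNA, where it traps DNA methyltransferases and lowers methylation of cytosine in CG pairs as cells divide. HDAC3 is a histone deacetylase that works within co-repressor complexes and, in germinal-centre lymphoma, opposes the acetylation of enhancers. The 5 genes are not known as members of a single pathway. CAMK1D encodes a serine/threonine kinase switched on by calcium and calmodulin. TRAPPC9 encodes a subunit of the TRAPP II tethering complex of the Golgi and has also been described as an activator of NF-κB signalling. STX8 encodes a syntaxin, a SNARE protein that takes part in the fusion of late endosomes. RASL10A encodes a RAS-like small GTPase. ADAT3 encodes the partner of ADAT2 in the enzyme that converts adenosine to inosine at the wobble position of transfer RNAs.

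The promoters of STX8, RASL10A and ADAT3 are shown because 5-azacitidine acts on methylation of CG pairs, and each CG is printed in capitals. The sequences are those of RefSeq on GRCh38.p14 and run 5′ to 3′ on the strand of the gene, with 300 bases each. RefSeq promoters were matched by symbol for 4 of the 5 genes, and TRAPPC9 is named only. The RefSeq start of CAMK1D lay 39249 bases from the nearest exon start of the gene in the count table, so its promoter is not shown. The starts of STX8, RASL10A and ADAT3 are exon starts in that table. Those of STX8 and RASL10A lie 771 and 3982 bases downstream of the outermost exon start of the gene. The window of STX8 is chr17:9575771-9576070 (minus strand), that of RASL10A is chr22:29315648-29315947 (minus strand) and that of ADAT3 is chr19:1905149-1905448 (plus strand).
STX8: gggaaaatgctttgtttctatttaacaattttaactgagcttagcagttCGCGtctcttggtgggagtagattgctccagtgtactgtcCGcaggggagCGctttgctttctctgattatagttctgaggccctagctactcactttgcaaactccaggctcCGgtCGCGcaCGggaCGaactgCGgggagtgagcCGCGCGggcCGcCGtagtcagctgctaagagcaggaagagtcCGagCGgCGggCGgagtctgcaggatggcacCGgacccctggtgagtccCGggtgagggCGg
RASL10A: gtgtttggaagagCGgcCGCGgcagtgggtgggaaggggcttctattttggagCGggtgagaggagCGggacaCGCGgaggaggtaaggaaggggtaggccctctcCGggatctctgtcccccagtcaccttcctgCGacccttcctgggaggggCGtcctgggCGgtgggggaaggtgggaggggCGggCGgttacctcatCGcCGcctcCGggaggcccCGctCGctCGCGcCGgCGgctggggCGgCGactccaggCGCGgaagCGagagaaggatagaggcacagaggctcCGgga
ADAT3: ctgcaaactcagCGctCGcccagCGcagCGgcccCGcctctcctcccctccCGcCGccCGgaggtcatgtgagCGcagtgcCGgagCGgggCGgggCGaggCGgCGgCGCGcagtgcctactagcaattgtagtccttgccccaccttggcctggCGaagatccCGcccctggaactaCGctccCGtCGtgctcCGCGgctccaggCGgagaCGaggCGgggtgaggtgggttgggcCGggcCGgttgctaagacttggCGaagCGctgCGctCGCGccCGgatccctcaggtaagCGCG
The STX8 window holds 22 CG pairs, the RASL10A window 28 and the ADAT3 window 37, against a median of 14.0 over 35116 RefSeq promoters of that length. Of all promoters, 37.7% hold at least as many as STX8, 26.2% at least as many as RASL10A and 11.3% at least as many as ADAT3. The GC-box letters GGGCGG, searched on both strands, occur 2 times in the STX8 window, 4 times in the RASL10A window and 3 times in the ADAT3 window, and 45.0% of all promoters hold them at least once. The E-box letters CACGTG and the CCAAT letters were found in none of these windows on either strand, and 7.3% and 34.6% of all promoters hold them. Each GGGCGG holds 1 of the CG pairs counted. These libraries hold no measurement of methylation.

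The genes fall into 3 that are very long and 2 that are very short. In the GRCh38 coordinates of the count table, TRAPPC9 (ENSG00000167632) lies on the minus strand of chromosome 8 at 139727725 to 140458579, a span of 730.9 kb. CAMK1D (ENSG00000183049) lies on the plus strand of chromosome 10 at 12349547 to 12835545 and spans 486.0 kb. STX8 (ENSG00000170310) lies on the minus strand of chromosome 17 at 9250471 to 9576591 and spans 326.1 kb. Nearly all of these spans is intron, since exons made up 1.32% of TRAPPC9, 1.79% of CAMK1D and 1.06% of STX8. RASL10A (ENSG00000100276) lies on the minus strand of chromosome 22 at 29312933 to 29319679 and spans 6.7 kb, of which 32.33% is exonic. ADAT3 (ENSG00000213638) lies on the plus strand of chromosome 19 at 1905399 to 1913447 and spans 8.0 kb, of which 27.53% is exonic. Of the exonic bases of ADAT3, 34.8% are shared with SCAMP4, a gene of the same strand, and reads that fell on bases shared by genes were left out of the authors' counts. The corresponding share was 2.0% for TRAPPC9 and 0 for the other genes. Counting ignored strand, so reads of antisense transcripts over exons cannot be told apart from reads of the genes themselves.

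The libraries were of nearly equal depth, with 35947840 to 36337051 counts. Of 11 germinal-centre B-cell markers, 11 were at 1 CPM or more in every both-drug, 5-azacitidine and inhibitor library and 10 in every vehicle library, with LMO2 below it. CPM is counts per 1e+06, scaled between libraries with TMM factors. Summed T and NK markers were 13.6 to 15.3 CPM in both-drug cells, 2.49 to 2.54 CPM in 5-azacitidine cells, 8.46 to 10.1 CPM in inhibitor cells and 1.8 to 2.62 CPM in vehicle cells. CD8A was at 0 in every library, and CD3E held the largest part of these sums. Summed monocyte and granulocyte markers were 2.3 to 2.47, 0.109 to 0.38, 1.14 to 1.54 and 0.327 to 0.442 CPM in the same 4 groups, with S100A8 and ELANE at 0. Summed epithelial and stromal markers, mainly COL1A1, were 5.16 to 7.23, 0.109 to 0.229, 2.66 to 3.19 and 0 to 0.164 CPM, with KRT8 at 0. Their part in the responses to the inhibitor below was not tested. The first 5-azacitidine library stood apart from its group: a chi-square of its counts, divided by the degrees of freedom, was 29.4 against the second and 26.4 against the third, which gave 4.25 with each other. It also had 13.8% of its counts from mitochondrial genes, against at most 10.2% in the others of its group. The both-drug libraries gave chi-squares per degree of freedom of 10.3, 13.9 and 16.9 with each other, against 3.58 to 7.1 within the inhibitor and vehicle groups. Since these are bulk libraries, fewer cells of a kind and less RNA per cell cannot be told apart.

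The first comparison describes the genes with 5-azacitidine alone. CAMK1D had 19.9, 19.4 and 21.9 CPM in the 5-azacitidine libraries, against 39.1, 40.7 and 37.4 CPM in the vehicle libraries. TRAPPC9 had 11.1, 13.2 and 12.9 CPM with 5-azacitidine and 22.5, 20.6 and 21.8 CPM with vehicle. STX8 had 13.4, 13.8 and 12.6 CPM with 5-azacitidine and 24.2, 22.7 and 21.6 CPM with vehicle. In the 3 long genes every 5-azacitidine library lay far below every vehicle library. RASL10A had 3.34, 3.52 and 3.69 CPM with 5-azacitidine and 5.94, 6.33 and 5.39 CPM with vehicle. ADAT3 had 4.43, 7.4 and 5.86 CPM with 5-azacitidine and 8.76, 8.7 and 11.4 CPM with vehicle. The short genes had fewer counts throughout and ADAT3 had the widest spread, with a coefficient of variation of 25.2% over its 5-azacitidine libraries, but neither gene's groups overlapped.

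The log2 change with 5-azacitidine alone was −0.94 ± 0.07 (SE) for CAMK1D, −0.80 ± 0.08 for TRAPPC9, −0.78 ± 0.08 for STX8, −0.74 ± 0.13 for RASL10A and −0.70 ± 0.14 for ADAT3. These are levels of 52.2% of vehicle for CAMK1D and 61.6% for ADAT3, at the ends of that range. The change rested on 117 to 232 counts per library for RASL10A and 155 to 402 for ADAT3, against 696 to 1491 for CAMK1D in the 5-azacitidine and vehicle libraries, and the standard errors of the short genes were the larger. As background, 4.75% of all genes tested were called lower with 5-azacitidine alone (849 of 17869), where a gene is called at a Benjamini-Hochberg adjusted p under 0.05 in edgeR's quasi-likelihood test. Groups that did not overlap, with 5-azacitidine lower, occurred in 12.9% of genes. Nothing is read from the members' own counts here, since this comparison chose them.

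**Figure D1:**
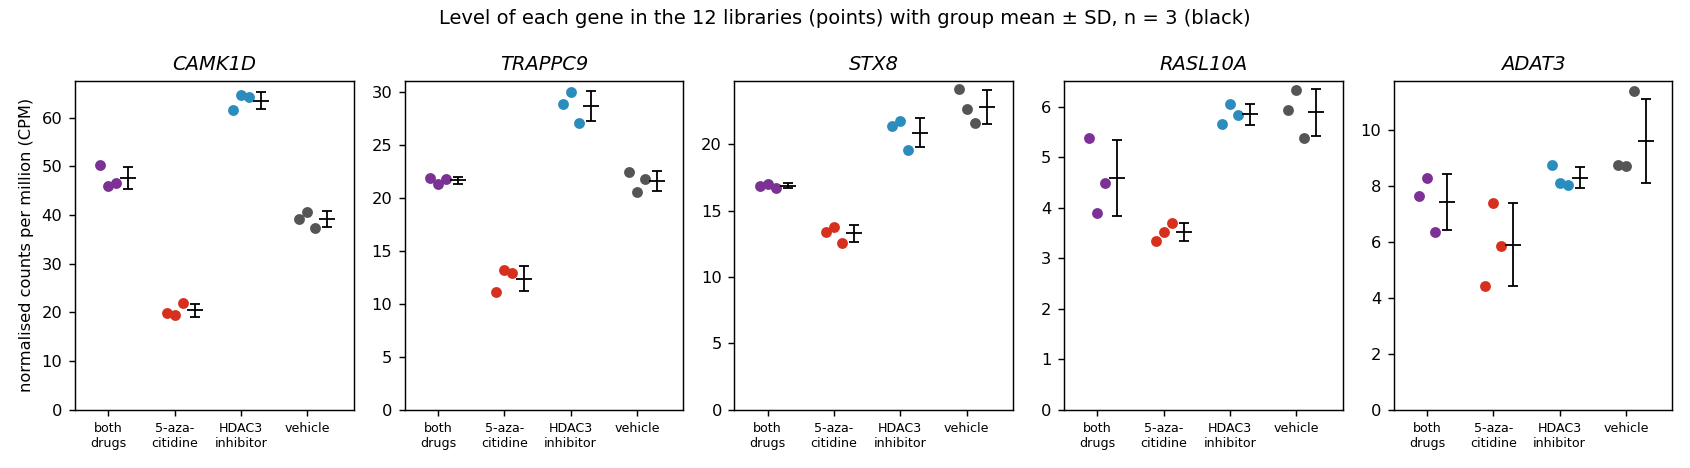
CPM (vertical axis, from 0, a separate scale for each gene) of CAMK1D, TRAPPC9, STX8, RASL10A and ADAT3 in the 12 libraries, by group. Points are libraries, and black marks are the group mean ± SD (n = 3). In every panel the 5-azacitidine group has the lowest mean, and CAMK1D and TRAPPC9 have their highest values in the inhibitor group.

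The order of fall around these genes shows which others were similar. Among genes called, with at least 5 CPM in the higher group and no overlap of libraries, CAMK1D ranked first, TRAPPC9 the fourth, STX8 the fifth, RASL10A the seventh and ADAT3 the eighth. RPTOR, the subunit that defines mTOR complex 1 (−0.93 ± 0.06), and KLF15, a zinc-finger transcription factor (−0.81 ± 0.17), ranked among them and are not members. Just below ADAT3 came KATNAL2 (−0.70 ± 0.11), the formin gene DIAPH2 (−0.68 ± 0.08), the lipid flippase gene ATP11A (−0.66 ± 0.10), CMIP (−0.66 ± 0.09) and the lysine methyltransferase gene SMYD3 (−0.63 ± 0.08). KATNAL2 just outside and ADAT3 just inside thus had the same change at this rounding. Of these 12 genes, 6 spanned 300 kb or more, CAMK1D, TRAPPC9 and STX8 among them, 9 spanned 180 kb or more, and 3 spanned under 20 kb. A span of 300 kb or more was found in 2.59% of the other genes with a mean of at least 5 CPM over all libraries. The 12 were taken by the comparison that chose the members, so these counts are a description and not a test. When genes of any level were counted, the members ranked between 218 and 411 of 17869 in the size of their fall.

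The 6 libraries with the inhibitor did not choose these genes, and the comparison of both drugs with the inhibitor asks whether 5-azacitidine lowered them there too. CAMK1D, TRAPPC9 and STX8 fell to between 0.75 and 0.807 of their level with the inhibitor alone, and RASL10A and ADAT3 did not pass the test. In all, 3 of the 5 genes were called lower, against 2.83% of all genes tested (506 of 17869). Among other genes with a mean of at least 5 CPM the share called lower was 4.65%. It was 26.7% of those spanning 400 kb or more, like CAMK1D and TRAPPC9, and 14.8% of those spanning 300 to 400 kb, like STX8. Libraries did not overlap, with both drugs lower, in 4 of the 5 genes, against 10.2% of all genes. The counts of members describe 5 genes picked for a like contrast and are not a test of the set. The background share over all genes moved with single libraries, since 225 to 880 genes were called lower when each library in turn was left out.

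CAMK1D had 50.3, 45.9 and 46.5 CPM in the both-drug libraries, against 61.5, 64.7 and 64.2 CPM in the inhibitor libraries. Every both-drug library lay below every inhibitor library, and the log2 change was −0.42 ± 0.06 (adjusted p = 9.22e-05, edgeR). TRAPPC9 had 21.9, 21.3 and 21.8 CPM with both drugs and 28.9, 30.0 and 27.1 CPM with the inhibitor. Its groups were as clearly apart, with a log2 change of −0.40 ± 0.07 (adjusted p = 0.00105). Over the 22 alternative settings CAMK1D and TRAPPC9 stayed called, with adjusted p-values up to 0.00158 for CAMK1D and 0.0134 for TRAPPC9.

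STX8 had 16.9, 17.0 and 16.7 CPM with both drugs, against 21.4, 21.8 and 19.6 CPM with the inhibitor. The both-drug libraries were nearly equal and all lay below the inhibitor libraries (log2 change −0.31 ± 0.08, adjusted p = 0.0108). The STX8 call ended when the first inhibitor library was left out (adjusted p = 0.0564) or the second (0.0675), with changes of −0.30 and −0.28. RASL10A had 5.39, 3.90 and 4.50 CPM with both drugs and 5.65, 6.06 and 5.84 CPM with the inhibitor. The groups did not overlap, but the first both-drug library came close to the inhibitor libraries, and the difference did not pass the test (−0.35 ± 0.13, adjusted p = 0.0931). Without that library the RASL10A difference was −0.48 and passed it (adjusted p = 0.042). ADAT3 had 7.64, 8.30 and 6.35 CPM with both drugs and 8.73, 8.12 and 8.05 CPM with the inhibitor. Its groups overlapped, and no difference was detectable at this spread (−0.16 ± 0.14, adjusted p = 0.576). The ADAT3 value was −0.06 without the third both-drug library, −0.25 without the second and −0.30 with the library number as a block, and it passed the test in none of the 22 alternatives (adjusted p from 0.201 to 0.896).

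**Figure D2:**
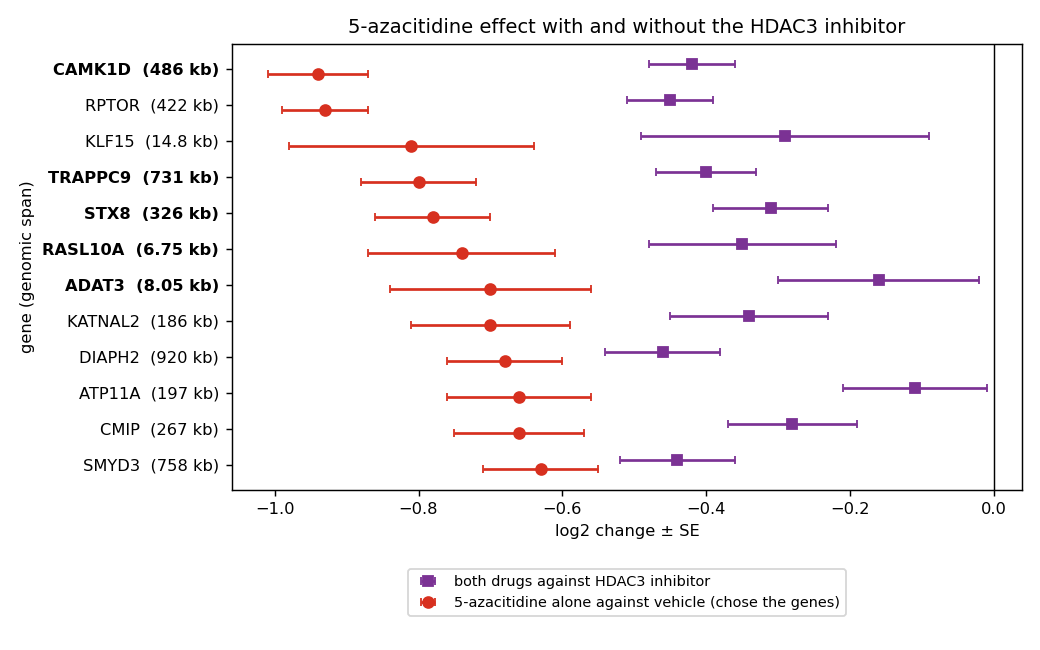
Log2 change ± SE (horizontal axis) with 5-azacitidine for the 5 genes (bold) and the other genes named in the order of fall, each with its genomic span. Squares are both drugs against inhibitor, circles 5-azacitidine alone against vehicle, the comparison that chose the genes. In all 12 genes the square lies nearer to 0 than the circle, as for CAMK1D with −0.42 and −0.94. All 12 were taken by the size of the circle value, which favours such a difference in advance.

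For all 5 genes the change on the inhibitor was smaller in size than the change alone. The log2 change with both drugs against inhibitor was 44.3% of that with 5-azacitidine alone for CAMK1D, 50.2% for TRAPPC9, 39.6% for STX8, 46.8% for RASL10A and 22.8% for ADAT3, whose change on the inhibitor ran from −0.25 to −0.06 with 1 library left out. The difference between the changes was 0.52 ± 0.09 on the log2 scale for CAMK1D, 0.40 ± 0.11 for TRAPPC9, 0.47 ± 0.11 for STX8, 0.39 ± 0.18 for RASL10A and 0.54 ± 0.20 for ADAT3. Because the genes were chosen for the change alone, which favours a smaller change in the other comparison, the difference was not tested for them. As background, 0.716% of all genes were called for this interaction (128 of 17869).

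CAMK1D and TRAPPC9 also rose with the inhibitor alone. This comparison shares the vehicle libraries with the one that chose the genes. The choice favoured a high vehicle level, so that a lower value with the inhibitor was favoured in advance. The counts, calls and p-values here are thus a description of these genes and not a test of them. CAMK1D was higher in every inhibitor library than in any vehicle library and rose by 0.70 ± 0.06 on the log2 scale, or 1.62-fold (adjusted p = 4.72e-10). TRAPPC9 rose by 0.41 ± 0.07, or 1.33-fold (adjusted p = 5.11e-05), also without overlap, which 30.2% of all genes showed in this direction. Thus 2 of the 5 genes were called higher with the inhibitor, against 26.4% of all genes. Among other genes with a mean of at least 5 CPM, 38.9% of those spanning 400 kb or more were called higher. CAMK1D and TRAPPC9 have such spans, and the share at any span was 22.2%. STX8 (−0.13 ± 0.07, adjusted p = 0.164), RASL10A (−0.01 ± 0.12, adjusted p = 0.958) and ADAT3 (−0.21 ± 0.14, adjusted p = 0.208) overlapped between inhibitor and vehicle and did not pass the test, against 24.9% of all genes called lower. The sign of the RASL10A value changed between settings.

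With both drugs against 5-azacitidine, 4 of the 5 genes were called higher, against 28.7% of all genes. The 5-azacitidine libraries that served to choose the genes are the baseline here, which the choice made low, so that a rise was favoured in advance. The count, calls and p-values of this comparison are thus a description of these genes and not a test of them. CAMK1D was 2.33-fold higher with both drugs than with 5-azacitidine (log2 change 1.22 ± 0.07, adjusted p = 1.47e-14), and TRAPPC9 1.75-fold (0.81 ± 0.08, adjusted p = 2.23e-09). STX8 was 1.27-fold higher (0.35 ± 0.08, adjusted p = 0.000468) and RASL10A 1.31-fold higher (0.39 ± 0.13, adjusted p = 0.016), with no overlap of libraries in either gene, as in 30.5% of all genes. The RASL10A call ended without the first both-drug library (0.25, adjusted p = 0.143), and also without the libraries of highest mitochondrial share in the 5-azacitidine and both-drug groups (0.38, adjusted p = 0.0582). ADAT3 did not pass the test (0.33 ± 0.14, adjusted p = 0.0545), and its libraries overlapped. The ADAT3 difference was called in 5 of 22 alternatives, with adjusted p-values of 0.00467 without the second 5-azacitidine library, 0.0207 without the third both-drug library, 0.0243 with a stricter filter on low counts, 0.0281 with none, and 0.0459 without the third vehicle library. It was not called in the other 17, and the difference was 0.17 without the first 5-azacitidine library (adjusted p = 0.315) and 0.24 without the second both-drug library (adjusted p = 0.201), so that leaving out 1 library gave 0.17 to 0.52.

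The 4 groups were fully apart in CAMK1D, while in each of the other genes some groups were not. CAMK1D was at 47.6 ± 2.35 CPM with both drugs (SD, n = 3), 20.4 ± 1.34 with 5-azacitidine, 63.5 ± 1.72 with the inhibitor and 39.1 ± 1.63 with vehicle. The inhibitor group was the highest and the 5-azacitidine group the lowest, and no groups of CAMK1D overlapped. TRAPPC9 was at 21.7 ± 0.316 CPM with both drugs, 12.4 ± 1.16 with 5-azacitidine, 28.7 ± 1.42 with the inhibitor and 21.6 ± 0.971 with vehicle. The order was the same, but both drugs and vehicle did not differ beyond their spread. STX8 was at 16.9 ± 0.159 CPM with both drugs, 13.3 ± 0.64 with 5-azacitidine, 20.9 ± 1.13 with the inhibitor and 22.8 ± 1.27 with vehicle, and only inhibitor and vehicle overlapped. In STX8 the vehicle group was the highest and 5-azacitidine the lowest. RASL10A was at 4.59 ± 0.752 CPM with both drugs, 3.52 ± 0.174 with 5-azacitidine, 5.85 ± 0.202 with the inhibitor and 5.89 ± 0.47 with vehicle, and the inhibitor and vehicle libraries overlapped. In RASL10A the both-drug libraries lay above those with 5-azacitidine and below those with the inhibitor, and the highest of them, at 5.39 CPM, was level with the lowest vehicle library. ADAT3 was at 7.43 ± 0.989 CPM with both drugs, 5.90 ± 1.48 with 5-azacitidine, 8.30 ± 0.374 with the inhibitor and 9.60 ± 1.51 with vehicle, and groups next to each other in level overlapped. Per kilobase of exon the vehicle levels were closer together than the CPM, with 4.50 for CAMK1D, 2.24 for TRAPPC9, 6.61 for STX8, 2.7 for RASL10A and 4.33 for ADAT3, each in CPM per kb. The ADAT3 value is too low, since its length includes the 34.8% of exonic bases shared with SCAMP4, where reads were left out.

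Across the 12 libraries CAMK1D and TRAPPC9 varied together (Pearson r = 0.97 of log2 CPM), as did STX8 and RASL10A (r = 0.92). The lowest correlation between members was that of CAMK1D with ADAT3 (r = 0.55). All these values are descriptions, since the libraries share their groups and the 5-azacitidine libraries chose the genes. The genes most like each member, among the first 3 of 9785 compared, were taken by the same correlation. For CAMK1D they were SMYD3 and GMDS, an enzyme of GDP-fucose synthesis (r = 0.98 each). For TRAPPC9 they were CAMK1D (0.97), SMYD3 and the receptor gene BMPR2 (0.96 each). For STX8 they were the lipoprotein receptor gene SCARB1 (0.97), RPTOR and the zinc transporter gene SLC39A11 (0.95 each). For RASL10A they were the mechanosensitive channel gene PIEZO1 (0.97) and AP3D1 (0.96), and for ADAT3 they were CCDC124 (0.93), RALY (0.91) and DANCR (0.89).

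Most genes of the members' families were not called in either 5-azacitidine comparison. Over all genes, 4.31% were called higher and 4.75% lower with 5-azacitidine alone. With both drugs against the inhibitor 4.51% were called higher and 2.83% lower. Of 15 other tested subunits of TRAPP complexes, 1 was called higher and 1 lower with 5-azacitidine alone, TRAPPC2 (0.32 ± 0.09, adjusted p = 0.0233) and TRAPPC12 (−0.25 ± 0.06, adjusted p = 0.0131). On the inhibitor none of the 15 was called by edgeR, DESeq2 or limma voom, and 4 had an unadjusted p under 0.05 in edgeR. Their median log2 change was 0.02 alone and −0.04 on the inhibitor, beside 0.00 and 0.01 over all genes. Of 17 other calmodulin and calmodulin-dependent kinase genes, CAMKK2, an upstream kinase of this family (−0.24 ± 0.06, adjusted p = 0.00807), and CAMK2G (−0.23 ± 0.07, adjusted p = 0.0282) fell alone and no other was called. On the inhibitor DAPK1, a death-associated kinase, was the 1 gene of this list called, and it rose (0.63 ± 0.16, adjusted p = 0.0158).

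Among 23 endosomal SNAREs and tethers other than STX8, VAMP8, a partner of STX8 in late endosome fusion, rose alone (0.20 ± 0.06, adjusted p = 0.0428), as did VPS39 (0.21 ± 0.06, adjusted p = 0.0258). VPS41, which works with VPS39 in the HOPS tether, fell (−0.25 ± 0.07, adjusted p = 0.0208). On the inhibitor none of the 23 was called by edgeR, DESeq2 or limma voom, with 3 at an unadjusted p under 0.05 in edgeR. Of 19 RAS-like and RAP-like GTPase genes, RAP2C rose (0.23 ± 0.07, adjusted p = 0.0287) and RHEBL1 fell (−0.54 ± 0.15, adjusted p = 0.0251) alone, while RASD2, RASL11A and RRAS rose on the inhibitor (0.91, 0.48 and 0.38, adjusted p = 0.00328, 0.00761 and 0.0456).

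Of 33 genes that modify the anticodon loop of transfer RNAs, the family of ADAT3, 5 fell with 5-azacitidine alone. The share called lower was 4.75% of all genes and 8.06% of other genes with a mean of at least 5 CPM. None of the 33 was called higher by edgeR, where 10 had an unadjusted p under 0.05 in either direction. Those that fell were TYW1 (−0.34 ± 0.07, adjusted p = 0.00192), CDKAL1 (−0.32 ± 0.09, adjusted p = 0.0201), TRMU (−0.21 ± 0.06), GTPBP3 (−0.20 ± 0.05) and URM1 (−0.18 ± 0.05). CDKAL1 and TYW1 are themselves long, at 698 and 244 kb. On the inhibitor CTU2 fell (−0.29 ± 0.08, adjusted p = 0.0238) and no other was called by edgeR. The medians of this list were −0.05 alone and −0.06 on the inhibitor. Of the family genes called here, TYW1 and RASD2 kept the call under every alternative run, and each of the others lost it in 1 to 10 of them.

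Neighbouring genes were examined to see whether the fall extended along the chromosome. Of the 25 genes that overlap the 5 spans, 4 were tested, and of these SCAMP4, which shares exonic bases with ADAT3, had 48.3 CPM with 5-azacitidine and 52.2 CPM with vehicle. Its change was −0.11 ± 0.06 (adjusted p = 0.304) alone and −0.05 ± 0.06 (adjusted p = 0.727) on the inhibitor. Counting the 2 nearest tested genes on either side of each member, 3 of 20 neighbours were called lower with 5-azacitidine alone. The share called lower was 4.75% of all genes and 8.06% of other genes with a mean of at least 5 CPM. The 3 were AP1B1 beside RASL10A (−0.17 ± 0.05, adjusted p = 0.0382), and CSNK1G2 (−0.29 ± 0.06, adjusted p = 0.0011) and BTBD2 (−0.21 ± 0.06, adjusted p = 0.019) beside ADAT3. AP1B1 was called in 10 of 22 alternatives, BTBD2 in 20 and CSNK1G2 in 22. On the inhibitor the neighbours OPTN (0.66 ± 0.13, adjusted p = 0.00161) and PIK3R5 (0.46 ± 0.13, adjusted p = 0.0243) rose, on the higher-coordinate side of CAMK1D and the lower-coordinate side of STX8, and no neighbour was called lower by edgeR. OPTN was called in 22 of 22 alternatives and PIK3R5 in 16. Medians over the 20 neighbours were −0.06 alone and 0.02 on the inhibitor.

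Long genes were compared with short ones by start and end, leaving out the 5 members, over 10012 genes with a mean of at least 5 CPM. The share of genes that fell was higher in longer bins in both comparisons, apart from 10 to 25 kb on the inhibitor (1.72%), beside 4.65% of all these genes on the inhibitor and 8.06% alone. With both drugs against the inhibitor it was 2.01% of genes under 10 kb, 5.56% of those of 50 to 100 kb, 13.8% of those of 200 to 300 kb and 26.7% of those of 400 kb or more. With 5-azacitidine alone the shares in the same bins were 4.3, 7.88, 24.2 and 45.0%. The median log2 change in genes of 400 kb or more (131 genes) was −0.15 on the inhibitor and −0.20 alone, and in genes under 10 kb (1838 genes) it was 0.02 and −0.01. CAMK1D and TRAPPC9 belong to the longest bin and STX8 to the bin of 300 to 400 kb, while RASL10A and ADAT3 belong to the shortest. On the inhibitor 10 of 131 genes in its bin had a larger fall than CAMK1D, 12 of 131 a larger one than TRAPPC9 and 9 of 128 a larger one than STX8. In the bin under 10 kb, 22 of 1838 genes had a larger fall than RASL10A and 153 a larger one than ADAT3.

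**Figure D3:**
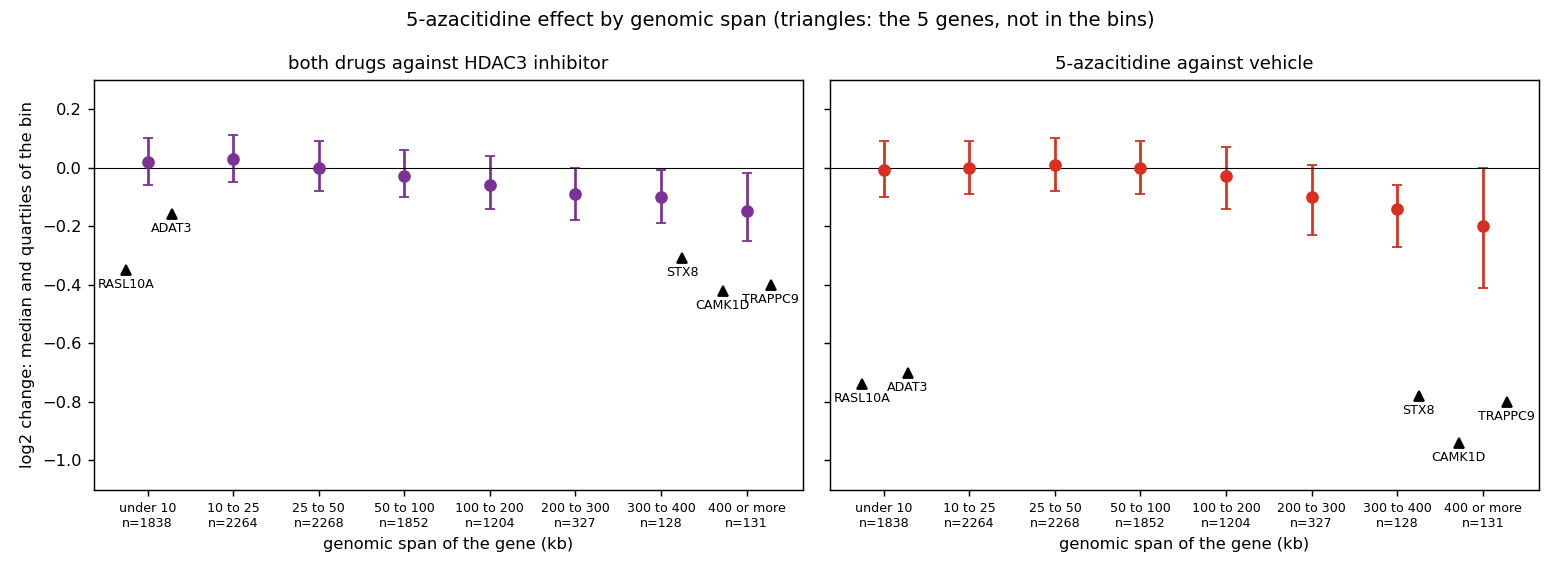
Log2 change (vertical axis) of expressed genes by genomic span (horizontal axis, bins in kb with the number of genes), for both drugs against inhibitor (left) and 5-azacitidine against vehicle (right). Circles are bin medians with the lower and upper quartiles, and triangles are the 5 genes, which are not in the bins and were chosen by the comparison on the right. The median of the longest bin is −0.15 on the left and −0.20 on the right.

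A value per library was formed as the median log2 level, relative to the mean of all libraries, of the 259 genes of 300 kb or more minus that of the 6370 genes under 50 kb. It was −0.04, 0.01 and 0.07 in the both-drug libraries and 0.13, 0.18 and 0.17 in the inhibitor libraries. It was −0.18, −0.17 and −0.19 in the 5-azacitidine libraries and −0.01, 0.03 and −0.02 in the vehicle libraries. In both pairs every library with 5-azacitidine lay below every library without it. The value also went up with the inhibitor, since every inhibitor library lay above every vehicle library and every both-drug library above every 5-azacitidine library. The difference with minus without 5-azacitidine was −0.17 over both pairs (exact permutation test within pairs, two-sided, n = 6 and 6 libraries, p = 0.005, the smallest the design allows, Benjamini-Hochberg adjusted 0.015 over 3 tests). Within pairs it was −0.15 on the inhibitor and −0.18 alone, each with an exact permutation p of 0.1, the smallest that 3 against 3 libraries can give. The pair without the inhibitor had served to choose the members, and the span comparison was itself chosen with earlier results known. The permutation p of 0.005 is thus not a fresh test, and the pair with the inhibitor, taken by itself, cannot go below 0.1. The first 5-azacitidine library, which stood apart in its counts, had −0.18 like the others of its group.

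**Figure D4:**
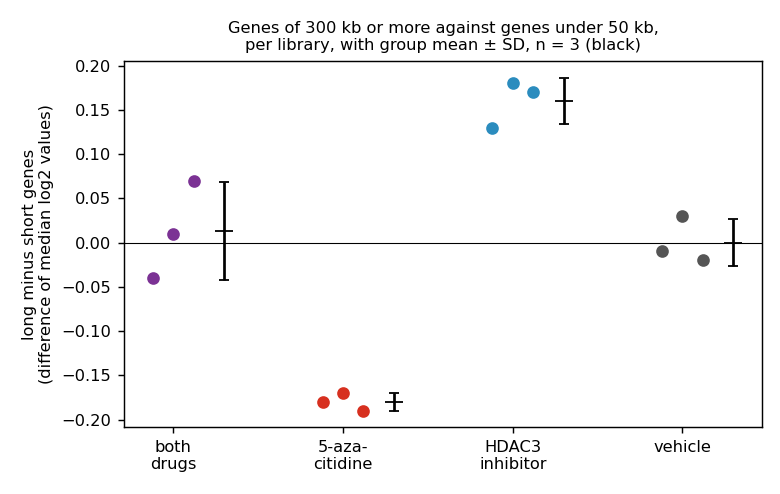
Median log2 level of genes of 300 kb or more minus that of genes under 50 kb (vertical axis) in each library (points), by group, with the group mean ± SD in black (n = 3). The 5-azacitidine libraries lie between −0.19 and −0.17 and the vehicle libraries between −0.02 and 0.03, and the both-drug libraries lie below the inhibitor libraries.

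Falls were also frequent in long genes with little exonic sequence, as in STX8 with its 3455 exonic bases. Of 25 genes that span 300 kb or more with under 5 kb of exon, 5 fell on the inhibitor and 12 (48.0%) fell alone, against 1.88% and 4.23% of 3665 genes under 50 kb with as little exon. Of all 259 genes of 300 kb or more, 54 fell on the inhibitor and 94 alone. The 37 genes that fell in both were 68.5% of the first and 39.4% of the second, and 8 and 11 of the 259 rose. The 5 largest falls of long genes on the inhibitor were SYNE2, a nuclear-envelope linker (−0.55 ± 0.07, adjusted p = 1e-05), LPP, a focal-adhesion adaptor (−0.48 ± 0.08, adjusted p = 0.000165), DIAPH2 (−0.46 ± 0.08, adjusted p = 0.000815), RPTOR (−0.45 ± 0.06, adjusted p = 1.83e-05) and SMYD3 (−0.44 ± 0.08, adjusted p = 0.000737). CAMK1D, with −0.42, came close to these. Not all long genes fell, and the largest rises were those of LINC00598 (0.77 ± 0.10), LINC00877 (0.45 ± 0.11), RASGEF1B (0.38 ± 0.12), MAPK10, the JNK3 kinase gene (0.29 ± 0.06), and LDLRAD4 (0.27 ± 0.08). The calls of LDLRAD4, RASGEF1B and LINC00877 ended in 10, 8 and 4 of the alternatives. Long genes had a lower median GC content in their transcripts, 44.1% against 51.2% in short genes. With the slope on GC content removed from each library, the difference with minus without 5-azacitidine was −0.18. The part of GC content in the difference between long and short genes was not tested.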

How the data were processed

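The authors' deposited values are expected counts per gene. Per the file headers, featureCounts 2.1.1 counted paired-end input over the exons of the release 114 annotation of GRCh38, split reads with several map positions into fractions, ignored strand and left out reads over more than 1 gene. Per the submitters' processing notes, reads were aligned or handled with STAR 2.7.11b, cutadapt 5.1, bcl2fastq 2.17.1.14, Subread 2.1.2 and FastQC 12.1. It is unsettled if 1 count stands for a read or a read pair, and counts come from PCR without molecular identifiers. The header lists 4 further libraries, for which the count table holds no counts.

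Counts were rounded to whole numbers and fitted in R 4.3.3 with edgeR 4.0.16 over all 12 libraries with 1 mean per group, after filterByExpr (17869 genes, 99.93% of the counts) and TMM scaling. Comparisons used its two-sided quasi-likelihood F test, p-values were adjusted over all tested genes by Benjamini-Hochberg, and an adjusted p below 0.05 made a call. The coefficient of biological variation was 6.05%. Log2 CPM used a prior count of 2. In simulated data for both drugs against the inhibitor (17328 genes), 42, 48, 78 and 96% of genes changed by 1.25-, 1.5-, 2- and 4-fold were recovered, with 8 false calls of 140.

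The members, the family lists, the span comparison and the rule for named genes were chosen with earlier results of these data known. The rule names the members, the genes around them in the order of fall, genes overlapping their spans and the 2 nearest tested genes of at least 1 CPM on either side, the 3 genes most correlated with each, up to 4 genes per list and comparison by adjusted p, and the 5 largest falls and rises among genes of 300 kb or more. Results for 2 genes that the rule names are not reported here. DESeq2 1.42.0, limma voom (limma 3.58.1), other scalings and filters, blocks for replicate or library number, and leaving out libraries were the alternatives. The GC slope (longest GENCODE transcript) was added after seeing the data. Tables and figures were made with Python 3.11.15, numpy 2.4.6, pandas 2.3.3 and matplotlib 3.10.9.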

Additional observations from a re-analysis of the deposited data

Results flagged for a closer look

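Of 81 named genes that are not members, 2 stood out for a 5-azacitidine effect that differed with and without the inhibitor by the interaction term of the edgeR fit. Both were named for their fall with 5-azacitidine alone or their likeness to a member in these same libraries. That fall is a part of the interaction, so the values are a description and no p-value is given for them. The difference, both drugs against inhibitor minus 5-azacitidine against vehicle, was 0.48 for RPTOR, with changes of −0.45 on the inhibitor and −0.93 alone. It was 0.47 for GMDS, with changes of −0.14 on the inhibitor and −0.62 alone.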

How the results depend on the processing

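Over all results and alternatives, 1929 kept direction and side of the threshold, 168 lost a call, 15 gained one, 22 counts of calls moved by over 1.5 times and 9 values changed sign, all of them uncalled. The sign changed for RASL10A with the inhibitor against vehicle (0.01 with DESeq2 size factors, DESeq2, or without the 2 libraries of highest mitochondrial share, 0.02 with the compared groups only, 0.06 with the stricter filter, −0.07 to 0.04 without 1 library) and for ATP11A on the inhibitor (−0.20 to 0.02 without 1 library, 0.02 being without both-drug replicate 2). Leaving out 1 library moved the counts of calls most: 1017 to 1980 genes for 5-azacitidine against vehicle (main count 1619; 1054 without 5-azacitidine replicate 2 and 1017 without vehicle replicate 1), 690 to 1848 for both drugs against inhibitor (main count 1312; 791 and 839 without both-drug replicates 1 and 3; 702, 750 and 690 without inhibitor replicates 1, 2 and 3) and 35 to 689 for the interaction (main count 128). The interaction count was 314 with no filter on low counts, 204 with at least 5 CPM in 3 libraries, 379 with DESeq2 and 227 with the library number as a block. STX8 on the inhibitor ran from −0.35 to −0.28 and RASL10A from −0.48 to −0.24 with 1 library left out, with the calls given above.

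Whether replicate numbers pair the libraries was not settled, since deviations of same-numbered libraries correlated from −0.21 to 0.38 over 12 pairs. In 5-azacitidine against vehicle 5 of 6 libraries correlated best with their own number, but in both drugs against inhibitor only 1 of 6 did. With the replicate block the counts of calls were 1263 for both drugs against inhibitor, 1564 for 5-azacitidine against vehicle and 134 for the interaction, and no member on the inhibitor changed its call. The long-minus-short difference with the block was −0.17 (exact sign-flip permutation p = 0.0312, the smallest it allows), and over its 22 alternatives it ran from −0.19 to −0.12. Changes of the low-count genes RASL10A and ADAT3 are the least precise.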
